A study of Rattus norvegicus with 4 samples.

Results

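Nuclei with strong Grm8 and Foxp2 signal were described in single-nucleus RNA-seq of the adult rat nucleus accumbens. They were chosen by raw UMI counts (distinct RNA molecules counted per nucleus): at least 5 of Grm8, at least 2 of Foxp2, at most 1 of Casz1 and Otof together, and at most 2 of Drd2 and Ebf1 together, in nuclei with 200 or more genes. The rule found 1201 of 26228 nuclei. The working name of these nuclei joins Grm8 with Chst9, but only 656 of the 1201 held a Chst9 UMI, so they are called Grm8 and Foxp2 nuclei here and the 656 are called the Chst9 subset. The 4 libraries came from female and male Sprague-Dawley rats aged 90 to 120 days. Rats were given saline or cocaine at 20 mg/kg into the peritoneum once a day for 7 days, and tissue was collected 1 hour after the last dose. Each library (saline female, cocaine female, saline male, cocaine male) pooled a 2 mm punch around the accumbens core from each of 4 rats, 16 rats in all, and nuclei were sorted by a DNA dye. The series asks how subpopulations of D1 medium spiny neurons respond to cocaine. Each treatment therefore had 2 pools, of different sex. The p-values rest on spread between pools, largely shared over genes, and not on spread between single rats. Values over the libraries are given below in the order saline female, cocaine female, saline male, cocaine male.

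Medium spiny neurons are the GABAergic output neurons of the striatum and accumbens. Most carry either the D1 dopamine receptor (Drd1), which raises cyclic AMP, or the D2 receptor (Drd2), which lowers it, and D2 neurons usually make the opioid peptide precursor Penk. Earlier rat accumbens work has listed a Grm8 spiny neuron class beside the D1 and D2 classes. Grm8 encodes metabotropic glutamate receptor 8, an inhibitory glutamate receptor, and Foxp2 a forkhead transcription factor. Chst9 encodes a sulfotransferase that acts on N-acetylgalactosamine sugars, Col14a1 a collagen, Eya2 a transcriptional coactivator with phosphatase activity, and Oprm1 the mu opioid receptor.

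The numbers of Grm8 and Foxp2 nuclei were 269, 386, 291 and 255. As a share of all nuclei this was 4.22% (exact 95% binomial interval 3.74 to 4.74), 5.31% (4.81 to 5.85), 4.68% (4.17 to 5.24) and 4.00% (3.53 to 4.51). The saline mean was 4.45% and the cocaine mean 4.66%, a difference of 0.205 percentage points (exact two-sided permutation test over the 4 libraries, p = 1; the smallest p this design allows is 0.333). On raw counts the share was higher with cocaine in females and lower with cocaine in males. The intervals cover counting error only. Median UMIs per chosen nucleus were 6890, 6662.5, 5658 and 4813, against library totals of 39768534, 40737786, 33759127 and 31484217 UMIs. The rule counts raw UMIs, so depth enters the share. Nuclei were also thinned to 5000 UMIs, which left out shallower ones and kept 3196, 3671, 3129 and 2746 nuclei. Among those the shares were 6.101%, 5.12%, 4.19% and 3.64%. The difference between treatments was then -0.763 points, and the direction in females was turned. Grm8 itself ran from 5 to 74 UMIs with a median of 12, and Foxp2 from 2 to 97 with a median of 14. Of the nuclei that met the rest of the rule, 104 stood at the Grm8 minimum of 5 UMIs and 144 stood just outside it at 4, and Chst9 was present in 22.1% and 20.1% of them. Between 10 and 18 barcodes were shared by each pair of libraries, and 0 of them belonged to Grm8 and Foxp2 nuclei.

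The chosen nuclei held more than 1 kind of nucleus. A Chst9 UMI was found in 158, 184, 160 and 154 of them, which is 58.7%, 47.7%, 55.0% and 60.4% (mean 55.4% ± 5.66, SD, n = 4 libraries; 46.1% ± 10.2 in nuclei chosen after thinning). In oligodendrocyte nuclei, which should lack the gene, a Chst9 UMI was found in 0.191% at a median of 1770 UMIs, and in D1 nuclei in 0.777% at a median of 8878 UMIs. The Chst9 subset had a median of 4653 UMIs and the 545 nuclei with no Chst9 UMI a median of 8865, so the absence of Chst9 went with deeper, not shallower, nuclei. On raw counts the subset made up 2.48%, 2.53%, 2.58% and 2.42% of all nuclei. After thinning to 5000 UMIs it made up 3.57% (exact 95% binomial interval 2.95 to 4.27), 2.12% (1.68 to 2.64), 2.08% (1.61 to 2.64) and 1.27% (0.889 to 1.77), a difference between treatments of -1.12 points. After thinning the saline female library was above the other 3. Thinning left out all nuclei under 5000 UMIs. The median of the subset was 5576, 4777.5, 4324.5 and 3830.5 UMIs in the 4 libraries, so it was under that cut in all but the saline female library. The cut thus took out more of the subset in the shallower libraries. The thinned shares therefore cannot show whether the likeness on raw counts would hold at equal depth.

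The other marker genes of the working name followed Chst9 within the nuclei. At least 1 UMI of Eya2, Col14a1 or Oprm1 was found in 38.7% of nuclei with no Chst9, 89.6% of the 48 nuclei with 1 Chst9 UMI, 95.1% of the 61 with 2, 94.8% of the 406 with 3 to 9 and 97.9% of the 141 with 10 or more. Htr4, a serotonin receptor gene that also marks one kind of D1 neuron, ran the other way. At least 2 Htr4 UMIs were found in 56.9% of nuclei with no Chst9 and in 4.17%, 3.28%, 1.72% and 2.84% at the rising Chst9 counts. A single Chst9 UMI thus went with nearly the same marker pattern as 10. Splitting at Chst9 was chosen after these values were seen.

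**Figure D1:**
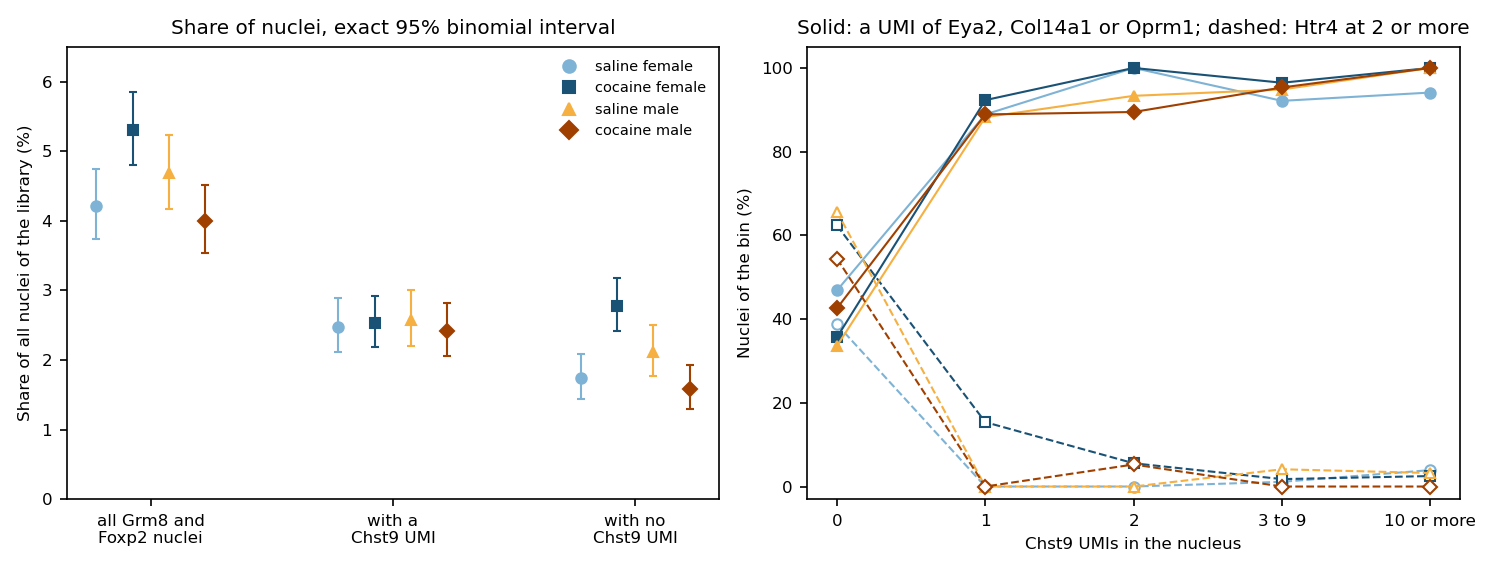
Left: share of all nuclei of each library (%) for all Grm8 and Foxp2 nuclei, for those with a Chst9 UMI and for those with none; bars are exact 95% binomial intervals, and the shares with a Chst9 UMI lie between 2.42% and 2.58% on these raw counts, and between 1.27% and 3.57% after thinning, which is not drawn. Right: share of nuclei (%) with a UMI of Eya2, Col14a1 or Oprm1 (solid) and with 2 or more Htr4 UMIs (dashed) by Chst9 UMIs in the nucleus, one line per library; from 1 Chst9 UMI on the solid lines lie far above the dashed ones in all 4 libraries, while at 0 the dashed lines are the higher in all but the saline female library.

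Markers of other cell types reached 3 UMIs more often in the nuclei with no Chst9. Those nuclei were also deeper, at a median of 8865 UMIs against 4653, which makes a fixed count easier to reach. The part of depth in these counts was not tested. Glutamatergic neuron markers (Slc17a7, Slc17a6, Tbr1 and others) reached 3 UMIs in 44 of the 545 nuclei with no Chst9 (8.07%) and in 2 of the 656 with it (0.305%). Interneuron markers did so in 82 (15.0%) and 11 (1.68%), and astrocyte markers in 40 (7.34%) and 5 (0.762%). Oligodendrocyte markers did so in 36 (6.61%) and 25 (3.81%), and the GABAergic markers Klhl1 and Htr7 in 34 (6.24%) and 11 (1.68%). Leaving Klhl1 and Htr7 aside, 198 Grm8 and Foxp2 nuclei carried markers of at least 1 other class, which was 26.4% of those in the saline female library and 15.0%, 8.93% and 16.9% in the others. The saline female library therefore stood apart. It also had fewer nuclei with 2 or more Htr4 UMIs among those with no Chst9, 38.7% against 62.4%, 65.6% and 54.5%. No doublet caller was run, and the part of doublets in these counts was not tested.

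Levels are given as CPM, a gene's UMIs scaled to the total of the summed nuclei of each library, and compared gene by gene with D1 nuclei (1545), D2 nuclei (2051) and Casz1 or Otof nuclei (406, the eccentric spiny neurons), which came from the same libraries. These comparisons are a description with no test, since the nuclei were chosen by their own UMIs, and Drd1, Ebf1, Drd2 and Rgs9 helped to choose the D1 or D2 nuclei. The Chst9 subset was chosen by its Chst9 UMIs, so its high Chst9 level follows from that choice. In the Chst9 subset Chst9 stood at 1288 CPM ± 64.1 (SD, n = 4), against 1.60 in D1, 0.862 in D2 and 67.7 in Casz1 or Otof nuclei. Eya2 stood at 493, 471, 482 and 482 CPM in the subset, against a mean of 1.42 in D1 nuclei. Col14a1 stood at 210, 213, 207 and 158 CPM, against 2.58 in D1 and 5.38 in Casz1 or Otof nuclei. Eya2 and Col14a1 were each higher in every library of the subset than in any library of the D1 or D2 nuclei. Oprm1 stood at 242, 269.6, 279.9 and 319 CPM, against 19.3 in D1 and 26.9 in D2 nuclei. The gap to Casz1 or Otof nuclei was smaller. Eya2, Col14a1 and Oprm1, 3 of 3, lay above those nuclei in every library, where 15.7% of 9475 genes did. Their median log2 ratio was 2.1 there, beside 6.19 against D1 nuclei. In nuclei with no Chst9 the means were 32.6 CPM for Eya2, 8.52 for Col14a1 and 58.5 for Oprm1.

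The general spiny neuron genes were low in the Chst9 subset. Rgs9, a brake on G protein signalling in striatal output neurons, stood at 183, 215, 182 and 206 CPM, against means of 684 in D1 and 750.4 in D2 nuclei. At least 2 Rgs9 UMIs were required of D1 and D2 nuclei and not of the subset, so part of this gap follows from that choice. Rgs9 is also among the genes compared on the medium spiny neuron list. Ppp1r1b, the DARPP-32 phosphatase inhibitor, stood at 32.4 CPM ± 12.3 against 221 in D1 nuclei. Foxp1, a forkhead factor of striatal neurons, stood at 167 CPM ± 24.2 against 1367, and Pde10a, the striatal cyclic nucleotide phosphodiesterase, at 747 CPM ± 62.7 against 2492. The GABA-synthesising enzyme Gad1 was at 420.4 CPM ± 56.4 against 191 and was among the 3 genes of the list above D1 nuclei. Of 15 genes on the medium spiny neuron list, 10 lay below the D1 nuclei in every library and 3 above, where over all 9542 genes compared 13.6% lay below and 25.1% above. Against D2 nuclei 12 of 15 lay below and 2 above, where 13.7% and 25.6% of 9528 genes did. The median log2 ratio of the list was -0.94 against D1 nuclei, beside 0.17 over all genes. Over all 1201 nuclei the same list gave 10 of 15 below and 2 above, where 10.6% and 23.3% of 9447 genes did.

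Genes of the matrix compartment were low and genes of the eccentric spiny neurons were high. Over all genes compared, 13.6% lay below and 25.1% above D1 nuclei in every library, and 13.7% and 25.6% did so against D2 nuclei. All 6 matrix genes compared lay below both D1 and D2 nuclei in every library. Calb1, the calcium buffer calbindin, stood at 4.53 CPM ± 2.49 against a mean of 84.3 in D1 nuclei. All 4 eccentric spiny neuron genes compared that the rule had not used lay above. Tshz1, a zinc finger factor of that list, stood at 638, 533, 658 and 557 CPM, against 31.9 in D1 nuclei and 377 in the Casz1 or Otof nuclei themselves. The patch list, which holds Oprm1, was split, with 5 of 9 genes above D1 nuclei and 3 below. The list of D1 island genes of other species was split as well, 2 above and 3 below of 5. Cpne4, a calcium-dependent membrane-binding protein, stood at 255 CPM against 17.9 in D1 nuclei and Rxfp1, the relaxin receptor, at 31.9 against 2.41, while Drd3, the D3 dopamine receptor, stood at 7.40 against 39.7.

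**Figure D2:**
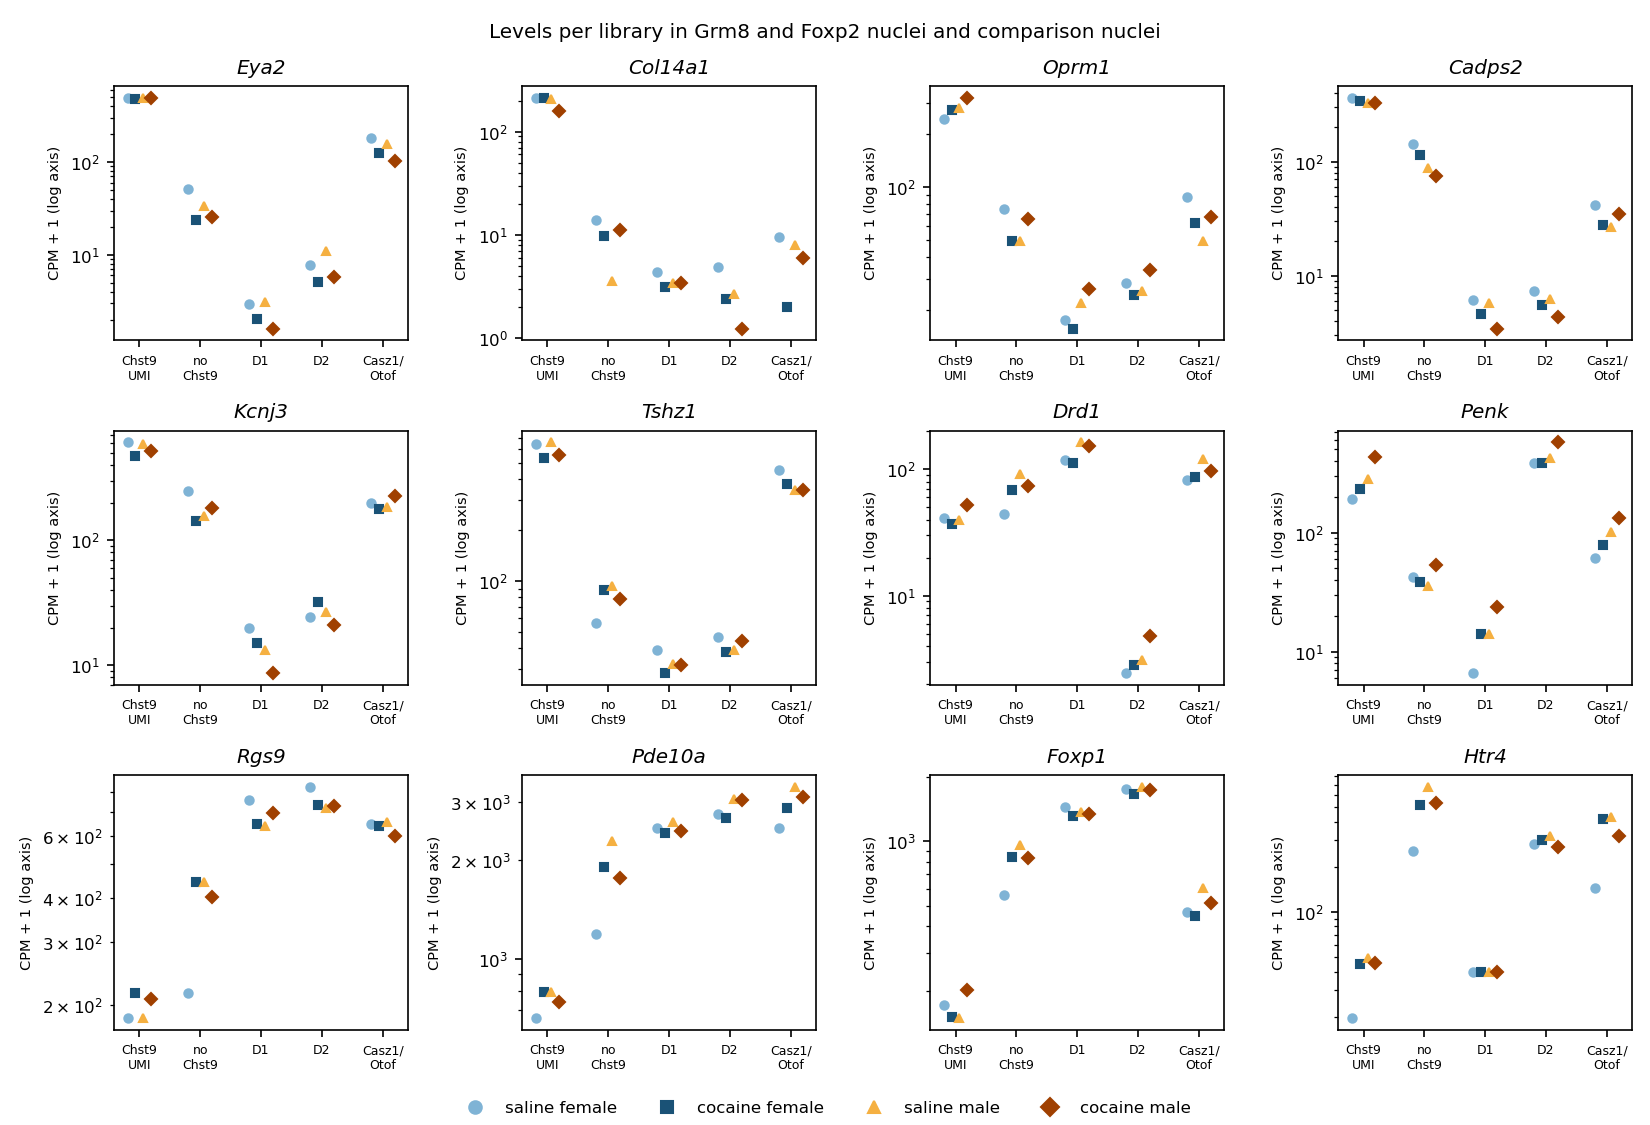
Levels of 12 genes (CPM plus 1, log axis) in each library for Grm8 and Foxp2 nuclei with a Chst9 UMI, those with none, D1, D2 and Casz1 or Otof nuclei. Eya2, Col14a1, Oprm1, Cadps2, Kcnj3 and Tshz1 are highest in the Chst9 subset; Rgs9, Pde10a and Foxp1 are lowest there in the mean; Htr4 is high in nuclei with no Chst9, in D2 and in Casz1 or Otof nuclei.

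The genes most raised against both D1 and D2 nuclei, by a rule that took the smallest ratio over libraries were named from 1399 genes that were higher in every library against both at 50 CPM or more in the 1201 nuclei, and the lower ones from 739. Cadps2, which primes dense-core vesicles for release, stood at 242, 189, 182 and 182 CPM against 4.00 in D1 and 4.86 in D2 nuclei. Cacna1g, a low-voltage T-type calcium channel, stood at 142, 97.0, 90.0 and 100.1 CPM against 2.08 and 2.49. Kcnj6, a G protein-gated potassium channel, stood at 114 CPM ± 42.6 against 1.34 and 3.05, with the highest level, 170, in the saline female library. Kcnc2, a fast Kv3 potassium channel, stood at 262 CPM ± 33.4 against 12.8 and 16.2. Grin3a, an NMDA receptor subunit that lowers calcium flow, stood at 154 CPM ± 9.94 against 10.1 and 9.99. The nuclear factor I gene Nfib stood at 269 CPM ± 61.8 against 8.89 and 12.4. The others of the 20 were Chst9, Col14a1, Eya2, Vwc2l, Ctbp2, Sntb1, Sez6l, Ppm1e, Clstn2, Gng2, Adamtsl1, Tmem255a, Tmem200a and Pip5k1b. Of these 20 genes only Tmem200a had a lower mean with a Chst9 UMI than without, 44.1 against 71.0 CPM. The rule did not use Casz1 or Otof nuclei, so it does not show that these genes are particular to the Grm8 and Foxp2 nuclei.

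The lower genes were led by Dach1, a transcriptional repressor, at 51.4, 51.2, 49.1 and 49.8 CPM against means of 659 in D1 and 568 in D2 nuclei. Scn4b, a sodium channel beta subunit linked to fast resurgent currents, stood at 21.6 CPM ± 8.01 against 85.4 and 86.4, and at 5.58 in the Chst9 subset. Calb1, Meox2, Syt10, Sh3rf2, Foxo1, Prkch and Man1a1 were also among the 10, beside 1 gene with a clone name. When the rule was applied to the Chst9 subset alone, 14 of the 20 higher and 6 of the 10 lower genes were the same. The Chst9 subset added Kcnj3, the partner subunit of Kcnj6, at 608, 475, 585 and 513 CPM against a mean of 13.3 in D1 nuclei, and in these libraries the groups did not overlap.

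Receptor and channel genes of the Chst9 subset differed from those of D1 nuclei in both directions. Grm5, a metabotropic glutamate receptor that couples to calcium release, stood at 2001 CPM ± 119.6 against 4437 in D1 nuclei. The ionotropic glutamate receptors were split, with 6 of 14 above and 5 below, and the potassium channel genes too, with 12 of 28 above and 11 below. Chrm3, a muscarinic receptor, stood at 258, 324, 285 and 252 CPM against a mean of 6.85 in D1 nuclei and 170 in D2 nuclei. The serotonin receptor gene Htr2c stood at 108 CPM against 457 and 963. Of 19 genes of D1 receptor signalling, 12 lay below D1 nuclei and 4 above. Over all genes 13.6% lay below and 25.1% above, beside which the ionotropic receptor, potassium channel and signalling counts stand.

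The Chst9 subset carried both a D1 receptor and a D2-type peptide signal. Drd1 stood at 40.3, 35.6, 39.1 and 50.7 CPM, between D2 nuclei at 2.28 and D1 nuclei at 136. Penk stood at 191, 232, 281 and 427 CPM, below the D2 mean of 438 and far above the D1 mean of 13.7. The 2 male libraries were above both female ones for Penk, and in each sex the cocaine library was the higher. Within single nuclei Penk was found about as often with Drd1 as without it. A Drd1 UMI was found in 121 of 656 nuclei (18.4%) and a Penk UMI in 332 (50.6%), and Penk was present in 47.9% of nuclei with Drd1 and in 51.2% of the rest. In oligodendrocyte nuclei, at a median of 1770 UMIs, 0.926% had a Drd1 and 6.03% a Penk UMI, and in D1 nuclei, at a median of 8878 UMIs, 10.0% had a Penk UMI. Tac1, the substance P precursor of D1 neurons, stood at 18.4 CPM against 199 in D1 nuclei, and Tac3, the neurokinin B precursor, at 96.0 against 7.90.

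The 545 nuclei with no Chst9 lay between the subset and the D1 nuclei in the mean for Rgs9, Foxp1 and Drd1, and above both for Htr4. Rgs9 stood at 214, 443, 442 and 402 CPM, with the saline female library the lowest. Foxp1 stood at 559.6, 843, 955 and 829.9 CPM and Drd1 at 43.6, 67.1, 91.0 and 72.4. Htr4 stood at 252, 512, 678 and 531 CPM, against means of 38.6 in D1, 293 in D2 and 38.8 in the Chst9 subset. For Rgs9, Foxp1, Htr4 and Drd1 the saline female library was the lowest, and the same library had the largest share of nuclei with markers of other classes.

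Cocaine against saline was tested with edgeR's quasi-likelihood test on UMIs summed per library, with sex as a covariate and Benjamini-Hochberg adjustment over all genes tested. The fit left 1 residual degree of freedom, so a gene's spread was largely borrowed from all genes. The weight of that shared spread was 7.91 prior degrees of freedom for all Grm8 and Foxp2 nuclei and 12.9 for the Chst9 subset. It was 9.44 with no Chst9, 25.9 in D2 nuclei and infinite in D1 nuclei. Over the 1201 nuclei 0 of 11035 genes passed an adjusted p of 0.05 (0% called), 364 had an unadjusted p under 0.05, and DESeq2 called 0. In the Chst9 subset 2 of 9042 genes passed (0.0221%), both higher, with 459 at an unadjusted p under 0.05 and 0 by DESeq2. In nuclei with no Chst9 0 of 9793 passed (0%), with 237 at an unadjusted p under 0.05 and 0 by DESeq2. In D1 nuclei of the same libraries 177 of 11600 genes passed (1.53%), 115 higher and 62 lower, and in D2 nuclei 23 of 12067 (0.191%). DESeq2 called 10 in D1 and 0 in D2 nuclei, and edgeR without the sex covariate called 25 and 0. D1 sums held more nuclei and UMIs than the Grm8 and Foxp2 sums, and the difference in counts of calls was not tested. Data were also simulated with these library totals, without a sex effect and with a spread set by expression level alone. Genes with a larger spread of their own were thus not covered. For sums like those of all Grm8 and Foxp2 nuclei, edgeR called 52 of 100 genes changed 2-fold and 99 of 100 changed 4-fold. In sums like those of the Chst9 subset it called 65 and 100 of 100, with 15 false calls.

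The first gene that passed in the Chst9 subset was Nr4a3, an orphan nuclear receptor and immediate-early gene induced by neuronal activity and cyclic AMP. It had 11, 122, 6 and 11 UMIs, or 11.4, 124, 7.81 and 16.4 CPM. The cocaine female library stood far above the other 3. The log2 difference was 2.91 (SE 0.39, edgeR adjusted p = 0.0279), 3.39 in females and 1.02 in males. Without the cocaine female library it was 0.71 (edgeR adjusted p = 0.997; over the alternatives tried the adjusted p ran from 1.17e-24 to 1.00). Over all 1201 nuclei the UMIs were 40, 180, 28 and 62, a log2 difference of 1.60 (SE 0.22, edgeR adjusted p = 0.478). In D1 nuclei the difference was 2.47 and in D2 nuclei 1.07. The subset minus D1 difference was 0.41 (SE 0.40, edgeR adjusted p = 1.00), and this difference did not pass.

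Few nuclei held the Nr4a3 signal. With a limit of 5 Nr4a3 UMIs, chosen after the values were seen, 6 of 184 subset nuclei of the cocaine female library passed (3.26%, exact 95% binomial interval 1.21 to 6.96), and they held 113 of its 122 Nr4a3 UMIs. In the other 3 libraries 0 of 158, 0 of 160 and 0 of 154 passed, which allows shares of up to 1.90%, 1.88% and 1.95% by the limit of 3 counts, and up to 2.31%, 2.28% and 2.37% by the exact 95% binomial interval, for counting error only. Grm8 and Foxp2 nuclei with no Chst9 passed in every library, 2, 4, 1 and 3 of them, or 1.80%, 1.98%, 0.763% and 2.97%. In D1 nuclei 5, 25, 2 and 11 passed, or 1.40%, 6.11%, 0.533% and 2.73%. In D2 nuclei 5, 11, 1 and 10 passed, or 1.08%, 2.21%, 0.174% and 1.93%. The 6 nuclei had 1 to 28 Chst9 UMIs and 8 to 42 Grm8 UMIs. Homer1, a postsynaptic scaffold gene with an activity-induced short form, had 17 to 115 UMIs in them with a median of 51.5, against a median of 1 in the other subset nuclei of that library. Scg2, the dense-core vesicle protein secretogranin II, had 8 to 48 UMIs with a median of 29.5 against 0. In the 25 D1 nuclei of the same library that passed, Homer1 had a median of 49 UMIs and Scg2 a median of 1. Median total UMIs were 7336.5 in the 6 nuclei and 4739 in the rest.

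**Figure D3:**
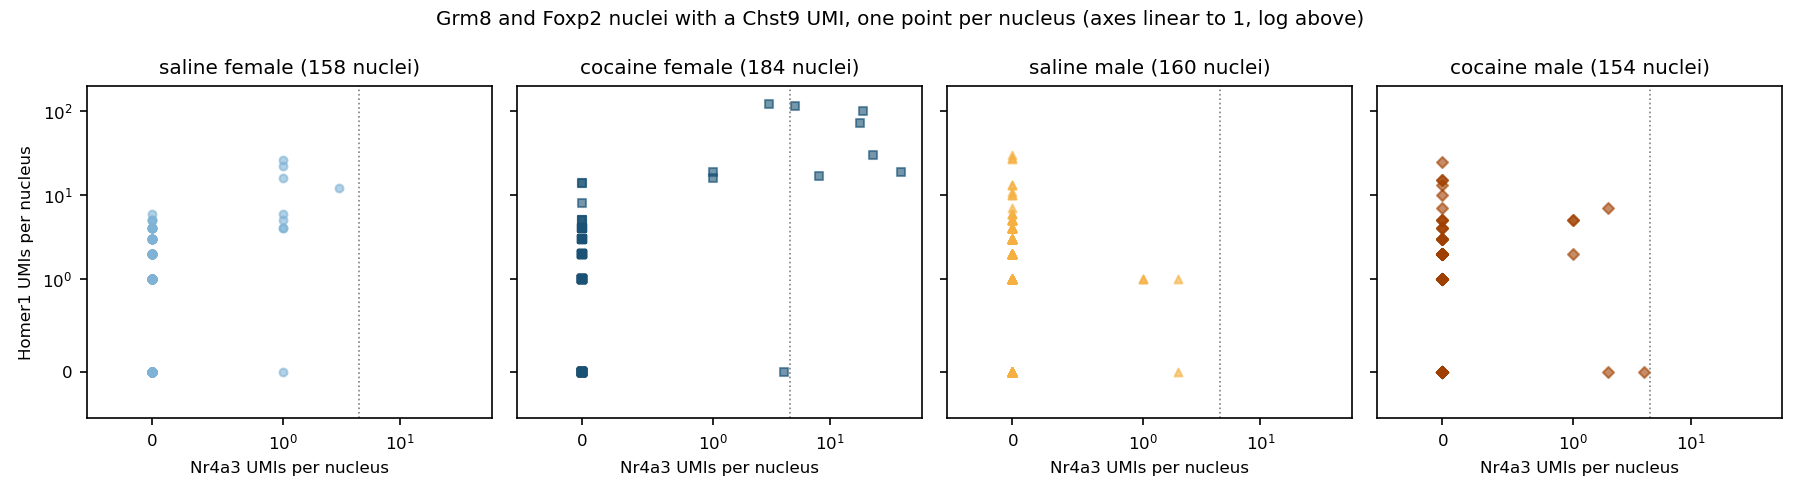
UMIs of Nr4a3 (x) and Homer1 (y) in each nucleus of the Chst9 subset, one panel per library, axes linear up to 1 and logarithmic above; the dotted line separates nuclei with 5 or more Nr4a3 UMIs. The 6 nuclei to the right of the line are all in the cocaine female library and have 17 to 115 Homer1 UMIs.

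Summed over the subset, Homer1 had 277, 745, 384 and 217 UMIs, a log2 ratio of cocaine to saline of 1.40 in females and -0.62 in males (0.42 in the fit, SE 0.32, edgeR adjusted p = 0.952). The 6 nuclei held 354 of the 745 UMIs of the cocaine female library. Scg2 had 128, 301, 190 and 155 UMIs (log2 difference 0.55, SE 0.23, edgeR adjusted p = 0.931), and the 6 nuclei held 175 of the 301. Scaled to subset totals of 967984, 982946, 768031 and 669984 UMIs, Scg2 was higher with cocaine in females and slightly lower in males. In D1 nuclei the differences were 0.62 for Homer1 and 0.78 for Scg2, and both passed. Of the 42 immediate-early and activity-induced genes listed, 13 were tested in the Chst9 subset, 1 was called (Nr4a3), 11 lay above 0 and the median log2 difference was 0.49, beside -0.0042 over all genes. Over all 1201 nuclei 22 were tested, 0 called and 19 above 0, with a median of 0.57 beside 0.0030 over all genes. The nuclear receptor Nr4a1 had 22, 37, 11 and 12 UMIs in the subset (0.59, SE 0.35, edgeR adjusted p = 0.931).

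**Figure D4:**
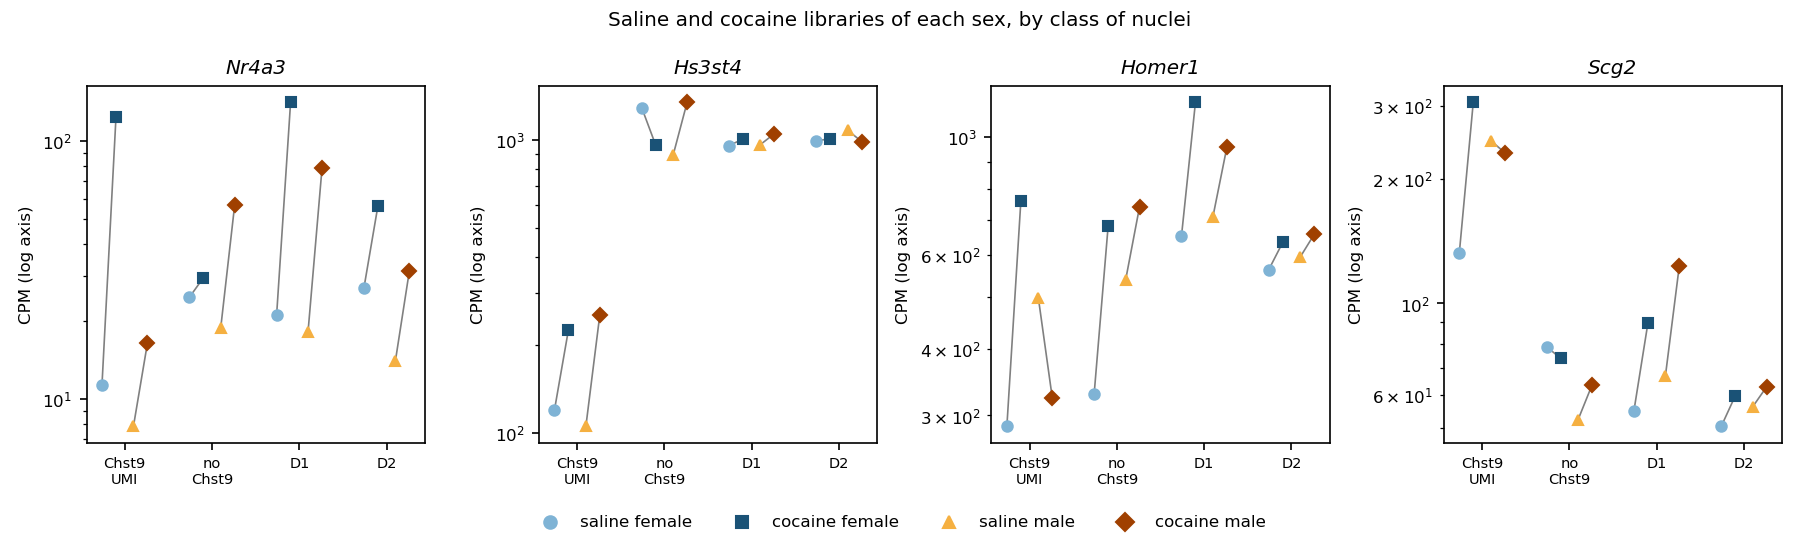
Levels (CPM, log axis) of Nr4a3, Hs3st4, Homer1 and Scg2 in saline and cocaine libraries, joined within each sex, for Grm8 and Foxp2 nuclei with and without a Chst9 UMI and for D1 and D2 nuclei. In the Chst9 subset Nr4a3 goes from 11.4 to 124 in females and from 7.81 to 16.4 in males, and Homer1 goes up in females and down in males.

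The other gene that passed in the Chst9 subset was Hs3st4, a heparan sulfate 3-O-sulfotransferase. It had 116, 221, 81 and 170 UMIs, or 119.8, 225, 105.5 and 254 CPM, and both cocaine libraries stood above both saline ones. The log2 difference was 1.05 (SE 0.15, edgeR adjusted p = 0.0279), and it stayed past the threshold without any one library (1.00 to 1.13). The level was far lower than the mean of 1122 CPM in nuclei with no Chst9 or 997 CPM in D1 nuclei, where the log2 differences were 0.08 and 0.08. A UMI was found in 22.2%, 26.6%, 13.8% and 14.9% of subset nuclei, and the 5 highest nuclei held 124 of the 170 UMIs of the cocaine male library. Without nuclei that held markers of other classes the difference was 0.48 (edgeR adjusted p = 0.694; over the alternatives tried the adjusted p ran from 1.98e-07 to 1.00). The summed level of oligodendrocyte markers in the subset also moved with cocaine, at 139, 232, 208 and 391 CPM. All 4 of these markers that were tested lay above 0, with a median log2 difference of 1.07 and 0 called at an adjusted p of 0.05 (4 at an unadjusted p under 0.05), and their part in the Nr4a3 and Hs3st4 results was not tested.

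Peptide and receptor genes of the subset did not pass. Penk had 185, 228, 216 and 286 UMIs (log2 difference 0.42, SE 0.14, edgeR adjusted p = 0.930) and Tac1 had 8, 16, 8 and 26 (1.44, SE 0.43, edgeR adjusted p = 0.863), each higher with cocaine in both sexes. Oprm1 had 234, 265, 215 and 214 UMIs (0.15, SE 0.14, edgeR adjusted p = 0.958), and Drd1 had 39, 35, 30 and 34 (0.07, SE 0.26, edgeR adjusted p = 0.988). Genes that passed in D1 nuclei had these values side by side. Ell2, an elongation factor, had 0.88 in D1 nuclei and 0.52 in the subset, and Zdbf2, an imprinted zinc finger gene, had 0.84 and 0.36. Ptpro, a receptor tyrosine phosphatase, had 0.97 in D1 nuclei and 0.18 in the subset, where its UMIs were 110, 177, 115 and 77.

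The difference between cocaine effects was tested in one model with the library as a block. The Chst9 subset minus D1 fit had 2 residual and 784 prior degrees of freedom, so its p-values rest on spread shared over genes. All Grm8 and Foxp2 nuclei minus D1 nuclei gave 0 of 12249 genes (0%; 481 at an unadjusted p under 0.05, 0 by DESeq2), and minus D2 nuclei 0 of 12532 (0%; 366 and 0). The Chst9 subset minus D1 nuclei gave 17 of 11577 genes (0.147%), 12 higher and 5 lower, and minus D2 nuclei 3 of 12066 (0.0249%). DESeq2 gave 0 and 2. Ptpro was among the 5 lower ones, with a difference of -0.76 (SE 0.19, edgeR adjusted p = 0.0459). Of the 12 higher genes, 8 had a level 2-fold or more above the subset's in nuclei with no Chst9, among them Tafa2, Hs3st4, Fstl4, Slit3 and Isl1, and of the 5 lower genes 0 did. Of all 11577 genes tested 578 did (4.99%). When the subset was limited to the 547 nuclei with 3 or more Chst9 UMIs, 0 genes passed against D1 and 0 against D2 nuclei. The differences from D1 nuclei were then 1.96 for Foxp4, -1.70 for Fth1, 1.24 for Tafa2, 1.22 for Fstl4 and 0.80 for Hs3st4, against 1.79, -1.62, 1.56, 1.74 and 0.99 in the whole subset, so the loss of calls does not show that the differences went away. That limit was chosen after the values were seen.

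Promoters were read for the activity-induced list because Nr4a3, Homer1 and Scg2 were high together in the 6 nuclei. The letters TGACGTCA, the full cyclic AMP response element, read the same on both strands and were searched in RefSeq promoters of 300 bases (build GRCr8, 250 before to 50 after the start). They were in 612 of 33469 promoters (1.83%), and in any promoter of 549 of 27457 genes (2.00%). Of the 42 listed genes 34 were matched, with 41 promoters, and 8 genes held the letters in 9 promoters, 2 of them of Crem: Btg2, Crem, Dusp1, Ier2, Jund, Maff, Scg2 and Vgf. Homer1 and Hs3st4 were matched and their windows did not hold the letters, and Nr4a3 was not matched. The promoters of Scg2 and Vgf, both granin-family proteins of dense-core vesicles, are shown with the letters in capitals, 123 and 90 bases before the start (chr9:88256817-88257116 and chr12:25276971-25277270, both minus strand, 5′ to 3′).
Scg2: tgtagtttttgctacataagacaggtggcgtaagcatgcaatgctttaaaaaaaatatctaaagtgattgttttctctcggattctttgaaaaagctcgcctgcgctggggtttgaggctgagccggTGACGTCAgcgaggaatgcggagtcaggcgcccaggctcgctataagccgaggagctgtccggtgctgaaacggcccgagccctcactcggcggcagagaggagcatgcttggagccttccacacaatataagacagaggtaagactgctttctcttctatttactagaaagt
Vgf: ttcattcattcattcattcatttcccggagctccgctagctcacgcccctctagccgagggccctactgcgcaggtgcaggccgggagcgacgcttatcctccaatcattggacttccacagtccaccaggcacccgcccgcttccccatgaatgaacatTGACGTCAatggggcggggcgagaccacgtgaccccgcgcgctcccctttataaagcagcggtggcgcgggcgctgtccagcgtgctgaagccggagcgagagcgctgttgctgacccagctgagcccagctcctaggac
Vgf had 49, 51, 37 and 32 UMIs in the Chst9 subset (log2 difference 0.00, SE 0.23, edgeR adjusted p = 1.00), and its level ran from 47.8 to 51.9 CPM over the 4 libraries, where that of Scg2 ran from 132 to 306.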

How the data were processed

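The authors deposited, for each of the 4 libraries, a matrix of raw UMI counts per gene and nucleus, not normalized, made with Cell Ranger 6.1.2 per the file headers, on build rn7 per the submitters' processing notes. No label or header names the gene annotation. Symbols came from the deposited feature lists (30560 genes, 7162 with an identifier only), and 9 of 273 listed symbols were not among them. Members, gene lists, the split at Chst9 and comparisons were chosen with earlier results of these data known.

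Nuclei had 200 or more genes. D1 nuclei had Drd1 and Ebf1 together at 4 or more UMIs and Drd2 at most 1, D2 nuclei had Drd2 at 4 or more and Ebf1 at most 1, and both had Rgs9 at 2 or more, Casz1 and Otof together at most 1 and Grm8 at most 4. Casz1 or Otof nuclei had 5 or more of both together and Foxp2 at 2 or more. Oligodendrocyte nuclei had 10 or more UMIs of their markers and no UMI of Gad1, Gad2 or Slc17a7. Nuclei with those neuronal UMIs were thus left out, so shares of neuronal genes in oligodendrocyte nuclei may be too low as a background. Nuclei that held 3 or more UMIs of another class's markers were counted in place of a doublet caller.

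UMIs were summed per library and fitted with edgeR 4.0.16 in R 4.3.3 (quasi-likelihood test, TMM, filterByExpr, sex as covariate; library as a block for differences; Benjamini-Hochberg), with DESeq2 1.42.0 as an alternative. On data simulated with a spread set by expression level alone, edgeR made 0 false calls in sums like those of all Grm8 and Foxp2 nuclei. It made 15 in sums like those of the Chst9 subset. Library totals ran from 31484217 to 40737786 UMIs. CPM used the library total of the class, and log2 ratios added 0.5 to counts. Counts over whole genes can be split between near-identical or overlapping genes. Named identity genes were the 20 highest and 10 lowest by the ratio nearest 0 in any library against D1 and D2 nuclei; named cocaine genes were those past 0.05 with one sign in both sexes, up to 5 per difference, and genes of described lists. Other genes were chosen after their values were seen. Alternatives were the tool, filter, scaling, replicate block, Grm8 limits, thinning, and leaving out each library. Results of 1 gene are not reported here.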

Additional observations from a re-analysis of the deposited data

Results flagged for a closer look

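The cocaine effect differed between the Chst9 subset and D1 nuclei, by edgeR's test of the difference itself over 4 libraries each, for 5 genes given here with the smallest adjusted p. Tafa2, a secreted chemokine-like protein, differed by 1.56 on the log2 scale (SE 0.20, edgeR adjusted p = 2.68e-10), with 53, 250, 59 and 65 UMIs in the subset, 91 of them in 1 nucleus of the cocaine female library. Without that library the difference was 0.73 and did not pass. Fth1, the ferritin heavy chain, differed by -1.62 (SE 0.24, edgeR adjusted p = 3.31e-07), with 195, 44, 54 and 47 UMIs, and 139 of the 195 in the saline female library came from 1 nucleus. Without that library it was -0.56 and did not pass. Hs3st4 differed by 0.99 (SE 0.18, edgeR adjusted p = 7.14e-05), and did not pass without the cocaine male library (0.95). Fstl4, a follistatin-like gene, differed by 1.74 (SE 0.33, edgeR adjusted p = 0.000453), with 13, 38, 11 and 39 UMIs in the subset, and did not pass without the saline female (1.51) or the cocaine male library (1.51). Foxp4, a forkhead factor, differed by 1.79 (SE 0.37, edgeR adjusted p = 0.00243), with 20, 49, 23 and 36 UMIs in the subset and 80, 39, 52 and 37 in D1 nuclei. It did not pass when the saline female (1.31), cocaine female (1.77) or cocaine male (1.82) pool was left out. Each of these 5 calls was thus lost without at least 1 library.

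Against D2 nuclei the same test gave a difference of 1.15 for Hs3st4 (SE 0.17, edgeR adjusted p = 0.00559), 1.92 for Fstl4 (SE 0.32, edgeR adjusted p = 0.0205) and 1.56 for Tafa2 (SE 0.27, edgeR adjusted p = 0.0236). The Tafa2 difference was 0.77 without the cocaine female library and the Fstl4 difference 1.64 without the cocaine male library, and neither passed. The Hs3st4 difference from D2 nuclei passed without any one library. With the subset limited to 3 or more Chst9 UMIs none of these 8 differences passed, while their sizes were 1.24 (Tafa2), -1.70 (Fth1), 0.80 (Hs3st4), 1.22 (Fstl4) and 1.96 (Foxp4) against D1 nuclei and 0.95 (Hs3st4), 1.40 (Fstl4) and 1.25 (Tafa2) against D2 nuclei.

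Homer1 moved in opposite directions in the sexes within the Chst9 subset, where the log2 ratio of cocaine to saline in females exceeded that in males by 2.03. With 1 pool per sex and treatment this difference was not tested.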

How the results depend on the processing

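All 30 named identity genes kept their sign under every alternative tried for them. They were picked for the largest ratios of one sign in these nuclei, and the alternatives used overlapping nuclei. The kept signs were therefore largely set in advance. The count of genes called for cocaine in all Grm8 and Foxp2 nuclei, 0 as reported, was 16 without the filter on low counts, 4 with Grm8 at 8 or more UMIs, 2 with a Chst9 UMI, and 0 to 313 without 1 library. In the Chst9 subset, 2 as reported, it was 0 with DESeq2, 25 without the filter, 7 with no replicate block, 14 without TMM, 6 without nuclei holding other-class markers, 15 with Chst9 at 3 or more UMIs, and 9 to 75 without 1 library. With no Chst9 it was 0 to 501 without 1 library. In D1 nuclei, 177 as reported, it was 10 with DESeq2, 25 with no replicate block and 52 to 108 without 1 library. In D2 nuclei, 23 as reported, it was 0 with DESeq2, 0 without the filter, 0 with no replicate block, 1 without TMM and 3 to 76 without 1 library. The difference from D1 nuclei, 0 as reported, was 10 without the filter and 0 to 350 without 1 library, and from D2 nuclei 5 and 0 to 339. For the Chst9 subset minus D1 nuclei, 17 as reported, it was 0 with DESeq2, 11 without the filter, 0 with no replicate block, 0 with Chst9 at 3 or more and 5 to 50 without 1 library, and minus D2 nuclei, 3 as reported, it was 11, 1 with no replicate block, 0 with Chst9 at 3 or more and 8 to 46. The counts of 313, 501, 350 and 339 all came without the saline male library. Leaving out the saline female library gave 41, 88, 55 and 37. A fit that leaves a treatment with 1 library assumes that it varies like the other, and the cause of these changes was not tested.

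The difference in share of nuclei, 0.205 points, was -0.0862 with Grm8 at 8 or more, -0.763 after thinning and -0.0526 for the Chst9 subset. It was 0.600 with Grm8 at 3 or more and 0.620 as a share of nuclei with 2 or more Rgs9 UMIs. Without 1 library it was -0.452 to 0.861. Among Grm8 and Foxp2 nuclei chosen after thinning the share with a Chst9 UMI was 46.1%. Thinning left out nuclei under 5000 UMIs. The Chst9 subset had a median of 4653 UMIs and the nuclei with no Chst9 8865, so the cut took out a larger part of the subset. Replicate numbers pair libraries by sex only, with 2 pairs. Over genes, female minus male deviations in saline and cocaine correlated at 0.0817 for all Grm8 and Foxp2 nuclei, 0.162 for the Chst9 subset and 0.269 for D1 nuclei. The Chst9 split, its alternatives and the removal of nuclei with other-class markers there were chosen after seeing the data.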
